A study of Mus musculus with 6 samples.

Results

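The genes described here are the 9 stretch- and volume-activated ion channel genes *Piezo1*, *Piezo2*, *Trpv2*, *Trpv4*, *Trpm7*, *Pkd2*, *Tmem63a*, *Tmem63b* and *Lrrc8a*, in leukemia stem cells (LSCs) with and without a conditional deletion of *Piezo1*. They were taken by name, as channels known to open on membrane stretch or cell swelling, from the 55367 genes listed in the expression table. Of those genes 26402 had values, all 9 channel genes among them, and 8 of the 9 passed the filter on low values and were tested.

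The study asked how PIEZO1 acts in acute myeloid leukemia (AML), and RNA sequencing was done on 3 WT and 3 Piezo1cKO LSC samples. Donors were Mx1-cre;Piezo1 fl/fl mice, called Piezo1cKO, and *Piezo1* fl/fl littermates without Cre, called WT, so both groups carried the floxed allele. Both had been given pIpC, the inducer of the interferon-responsive Mx1-cre, a driver that is not limited to blood cells. Lineage-negative marrow cells of these donors on the C57BL/6J background received the MLL-AF9-YFP retrovirus, which makes an AML fusion oncogene, and were transplanted into irradiated recipients, and the labels give an age of 8 to 10 weeks. LSCs were sorted from recipient marrow as Lin- Sca-1- c-Kit+ CD16/32hi CD34+ YFP+ cells, so host cells without the virus fell outside the gate. The labels do not say whether the libraries of a group came from separate mice or from pools, so p-values measure the spread between these libraries, which may be technical.

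PIEZO1 and PIEZO2 are cation channels that open when the membrane is stretched and let calcium into the cell. TRPV2, TRPV4 and PKD2 (polycystin-2) are calcium-permeable channels of the TRP superfamily with reported roles in swelling and flow sensing, and TRPM7 joins a magnesium- and calcium-conducting pore to a kinase. TMEM63A and TMEM63B are stretch-gated relatives of the plant OSCA channels, while LRRC8A is the required subunit of the volume-regulated anion channel, which releases chloride and organic solutes from swollen cells.

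The libraries held 14112124 to 15483613 reads on genes. The deposited values were log2 values with the form of a regularized logarithm, which pulls each library toward the mean of the gene, most strongly for genes with few reads, so that differences on this scale understate change. Whole read counts could be worked back from them, and 92.8% of the values of genes averaging 1 read or more came within 0.1 of a whole number. Each gene below is therefore given first as recovered reads per library. Normalised reads are these counts divided by a size factor of each library, and the log2 fold change and adjusted p are from limma on the deposited values (Benjamini-Hochberg over 16746 genes, two-sided) unless reads are named. Sorting markers were present in every library. *Kit* stood at 61 to 63.8 TPM in WT and 82.9 to 88.2 in Piezo1cKO, and *Cd34* at 110 to 114 and 172 to 183, both called higher. Of the CD16/32 genes, *Fcgr3* stood at 669 to 698 and 663 to 711 TPM and was not called, and *Fcgr2b* fell from 129 to 135 TPM to 60.6 to 67.1. All 13 listed markers of LSCs and granulocyte-monocyte progenitors had reads, with 3 called higher and 7 lower, *Mpo* and *Elane* among the latter. The share called was 76.9%, beside 63.0% of all tested genes. WT libraries had 18058 to 20995 genes with at least 1 read and Piezo1cKO libraries 17816 to 18836. Genes with 1 to 5 reads numbered 6012, 6778 and 3797 in the WT libraries and 3644, 4496 and 3679 in the Piezo1cKO libraries. For genes with a mean under 1 read, only 26.6% of values came within 0.1 of a whole number, so these gene counts are uncertain.

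*Piezo1* was lower in all 3 Piezo1cKO libraries. The gene (ENSMUSG00000014444.17, chr8:122481698-122551329, minus strand, GRCm38) had 104, 92 and 113 reads in the WT libraries and 35, 58 and 45 in the Piezo1cKO libraries. The groups did not overlap. Mean normalised reads were 100.8 ± 7.93 (SD, n = 3) in WT and 46.3 ± 10.0 (SD, n = 3) in Piezo1cKO LSCs, so that 45.9% of the WT level remained. The change was -0.29 ± 0.04 (SE) on the deposited log2 scale (limma adjusted p = 5.8e-06), and -1.13 on the reads, with a 95% interval of -1.499 to -0.76 (limma-voom adjusted p = 4.6e-05). The targeted exons are not given in the sources used here, and the reads cover the whole gene, so they do not separate intact from recombined transcripts. In a bulk library of sorted cells, fewer cells with the gene and less RNA per cell cannot be told apart.

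Of the *Piezo1* exon bases, 24.6% (2441 bases) also lie in exons of *Ctu2*, a tRNA-modifying enzyme gene on the opposite strand. *Ctu2* had 372, 371 and 399 reads in WT and 193, 182 and 208 in Piezo1cKO libraries, 52.8% of the WT level. The study made its libraries by a protocol adapted from Smart-seq2, with amplified cDNA cut by Tn5 transposase, and described no step that keeps strand. The strand setting of the counting is not given in the sources used here, and without strand the reads of the shared bases cannot be told apart.

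Of the 8 tested channel genes, 7 passed an adjusted p of 0.05 (limma), against 63.0% of all tested genes. These counts include *Piezo1*, the gene that was deleted, so its fall says nothing about the other channels. *Trpv4*, *Pkd2* and *Tmem63b* were the 3 that rose, where 31.6% of all genes were called higher. Of these, *Pkd2* had few reads and passed the filters only through the Piezo1cKO libraries, so its call is a description only. *Piezo1*, *Trpv2*, *Tmem63a* and *Lrrc8a* were the 4 that fell, where 31.4% of all genes were called lower. The 3 libraries of each group did not overlap for 7 of the 8, and this held for 66.6% of all tested genes. The median change of the 8 was -0.06 on the deposited scale, beside 0.00061 over all genes. With the additional limit of an absolute log2 fold change over 1, 0 of the 8 passed on the deposited scale, where the largest absolute change was 0.45 (0.818% of all genes passed, limma) and 3 passed on the recovered reads (24.9% of all genes), namely *Piezo1*, *Trpv4* and *Pkd2*.

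**Figure D1:**
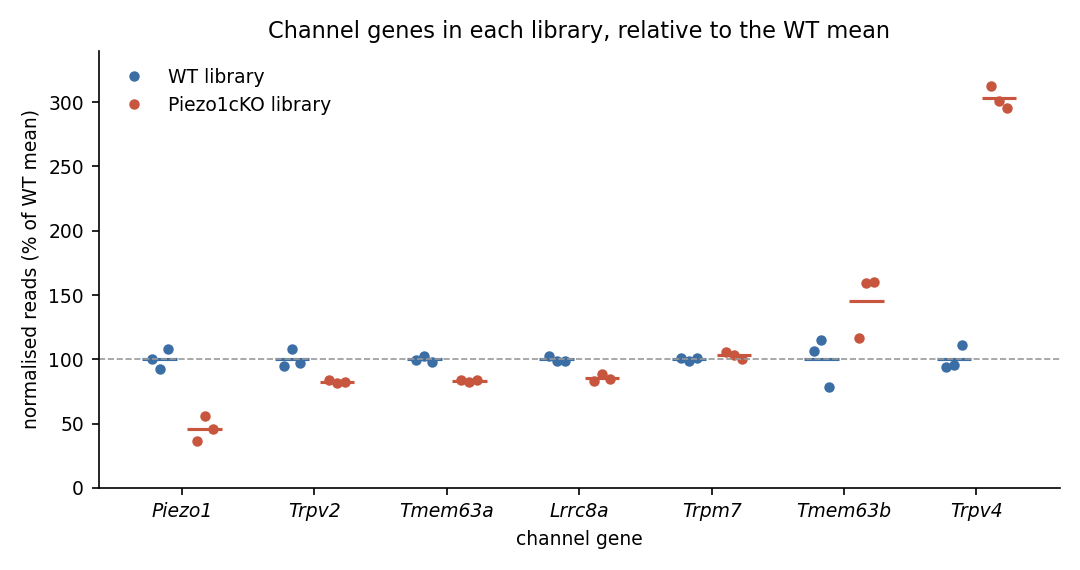
Normalised reads of 7 channel genes in each library as a percentage of the WT mean (y axis, linear from 0), with 1 point per library and a bar at the group mean (n = 3 each). By the Piezo1cKO mean, *Trpv4* stands at 303% and *Piezo1* at 45.9%, and the other 5 genes lie between 82.7% and 145.6%. Points of single libraries can lie beyond these means. *Pkd2* and *Piezo2*, with fewer than 10 reads in every library, are left out.

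*Trpv4* was the channel gene with the largest rise on the deposited scale. This gene encodes a calcium-permeable channel that opens on cell swelling (ENSMUSG00000014158.12, chr5:114622152-114658421, minus strand, GRCm38). The WT libraries had 42, 41 and 50 reads and the Piezo1cKO libraries 130, 134 and 126. Every Piezo1cKO library lay above every WT library by more than the spread within either group. Mean normalised reads rose from 43.4 ± 4.08 to 131.5 ± 3.88 (SD, n = 3 each), 303% of the WT level. The log2 difference was 0.45 ± 0.04 (SE) as deposited (limma adjusted p = 5.56e-09) and 1.59 on the reads (95% interval 1.27 to 1.91, limma-voom adjusted p = 2.9e-07). The ratio of *Trpv4* to *Piezo1* TPM, a level per length defined below, was 0.984, 1.09 and 1.08 in the WT libraries and 9.05, 5.63 and 6.83 in the Piezo1cKO libraries. Its size depends on the merged exon lengths used.

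The bases just upstream of the start of *Piezo1* and *Trpv4*, the called genes with the largest change in each direction among those with more than 10 reads in each library, are shown with those of *Tmem63b*, a further gene that rose. They are the 250 bases before each RefSeq start site (GRCm38.p6), 5′ to 3′ on the strand of the gene. They were searched on both strands for ACGTG and GCGTG, the core bound by hypoxia-inducible factors, because HIF1A belongs to the pathway the study named. The study gave its HIF1A motif as GCGTR, where R is A or G. The search here therefore differs, as it adds ACGTG and leaves out GCGTA. Capitals mark matches, and a palindromic CACGTG counts once on each strand.
Piezo1, chr8:122551330-122551579, minus strand: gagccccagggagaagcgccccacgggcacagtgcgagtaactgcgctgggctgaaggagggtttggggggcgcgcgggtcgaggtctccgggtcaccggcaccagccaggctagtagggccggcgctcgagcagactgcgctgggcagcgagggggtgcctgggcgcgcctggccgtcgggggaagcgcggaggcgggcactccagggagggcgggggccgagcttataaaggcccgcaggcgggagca
Trpv4, chr5:114658422-114658671, minus strand: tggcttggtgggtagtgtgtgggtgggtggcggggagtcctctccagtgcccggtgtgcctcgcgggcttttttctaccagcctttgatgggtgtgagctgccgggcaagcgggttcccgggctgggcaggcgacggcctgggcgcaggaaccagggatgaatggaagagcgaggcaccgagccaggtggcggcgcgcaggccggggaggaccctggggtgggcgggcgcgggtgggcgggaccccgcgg
Tmem63b, chr17:45686219-45686468, minus strand: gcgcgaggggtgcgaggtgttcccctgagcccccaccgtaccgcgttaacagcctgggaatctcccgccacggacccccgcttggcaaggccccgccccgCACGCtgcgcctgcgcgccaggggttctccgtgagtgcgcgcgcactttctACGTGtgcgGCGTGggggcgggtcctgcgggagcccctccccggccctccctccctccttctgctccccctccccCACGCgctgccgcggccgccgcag
The windows of *Piezo1* and *Trpv4* held 0 matches, as did those of *Trpv2* and *Pkd2*. That of *Tmem63b* held 4, *Trpm7* 4, *Tmem63a* 3 and *Lrrc8a* 2. Over the 27025 genes with such a window, 38.6% held at least 1 match, so 4 of the 8 channel genes with a window is a description with no test. The GC content was 74% for *Piezo1*, 72% for *Trpv4* and 75.6% for *Tmem63b*. No match says only that these letters are not in the window.

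*Tmem63b*, which encodes a stretch-gated cation channel, also rose, but with a wider spread. It had 55, 57 and 41 reads in WT and 56, 82 and 79 in Piezo1cKO libraries. The normalised values did not overlap, although Piezo1cKO replicate 1, at 58.5, lay next to WT replicate 2, at 57.5. The mean was 145.6% of the WT level, with a change of 0.13 ± 0.04 (SE) as deposited (limma adjusted p = 0.0138) and 0.55 on the reads (95% interval 0.14 to 0.96, limma-voom adjusted p = 0.0212). The call was lost without WT replicate 3 (limma adjusted p = 0.0939), without Piezo1cKO replicate 2 (0.0725), without Piezo1cKO replicate 3 (0.0696), and after quantile normalization (0.06). Of its exon bases, 2.08% also lie in *Mrpl14* on the opposite strand, for which the adjusted p was 0.337 (limma).

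*Pkd2* and *Piezo2* were close to the limit of detection. *Pkd2*, which encodes polycystin-2, had 3, 0 and 1 reads in the WT libraries and 8, 8 and 9 in the Piezo1cKO libraries. All Piezo1cKO libraries were above all WT libraries, and the normalised read ratio was 6.45 with an exact 95% interval of 2.23 to 25.5 that covers counting error only. The adjusted p was under 0.05 on both scales (limma 0.00164 as deposited, limma-voom 0.00127 on the reads). The WT libraries held 4 reads together and the Piezo1cKO libraries 25, and deposited values are pulled toward the mean of the gene. *Pkd2* therefore passed the filters only through the Piezo1cKO libraries, and these p-values are given as a description only. Its log2 change on the reads was 2.71, and 3.39 without WT replicate 1 and 2.01 without WT replicate 2. *Piezo2*, the touch channel of sensory neurons, had 1, 1 and 0 reads in WT and 0, 2 and 0 in Piezo1cKO libraries, so a difference in *Piezo2* was not detectable at this depth.

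*Trpv2*, *Tmem63a* and *Lrrc8a* each fell, by less than *Piezo1* did on either scale. *Trpv2*, a calcium-permeable TRP channel found in many blood cells, had 1222, 1335 and 1258 reads in WT and 1005, 1044 and 1011 in Piezo1cKO libraries. The groups did not overlap, and 82.7% of the WT level remained, a change of -0.18 ± 0.03 (SE) as deposited (limma adjusted p = 0.000201). *Tmem63a*, the other expressed TMEM63 channel, had 517, 515 and 517 reads in WT and 405, 428 and 418 in Piezo1cKO libraries. Again the groups were apart, at 83.3% of the WT level (-0.15 ± 0.03, limma adjusted p = 0.000798). *Lrrc8a* had 7898, 7287 and 7693 reads in WT and 5956, 6767 and 6236 in Piezo1cKO libraries, and the groups were apart at 85.5% of the WT level (-0.17 ± 0.02, limma adjusted p = 5.61e-06). Its recovered values ran from 5955.81 to 7898.13 before rounding. All of them lay more than 0.1 from a whole number, so its counts are approximate. On the reads the changes of *Trpv2*, *Tmem63a* and *Lrrc8a* were -0.27, -0.26 and -0.23. *Tmem63a* and *Tmem63b*, members of the same family, were called in opposite directions.

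*Trpm7*, the channel kinase, was the tested channel gene that was not called. It had 1697, 1598 and 1715 reads in WT and 1660, 1741 and 1607 in Piezo1cKO libraries, and the groups overlapped. The difference was 0.03 as deposited (95% interval -0.03 to 0.09, limma adjusted p = 0.36) and 0.04 on the reads (95% interval -0.04 to 0.13). Both intervals include no change.

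Levels were compared between genes per length. TPM here is recovered reads per kilobase of merged exons, scaled to the same fixed total in each library. In WT LSCs the order was *Lrrc8a* (380.3 TPM), *Trpv2* (61.0), *Trpm7* (31.7), *Tmem63a* (24.7), *Trpv4* (2.34 ± 0.22), *Piezo1* (2.23 ± 0.18), *Tmem63b* (2.15 ± 0.40), *Pkd2* (0.0279) and *Piezo2* (0.00842). The ranges of neighbours were apart except from *Trpv4* through *Piezo1* to *Tmem63b* and between *Pkd2* and *Piezo2*. In Piezo1cKO LSCs *Lrrc8a* (329.8 TPM), *Trpv2* (51.2), *Trpm7* (33.2), *Tmem63a* (20.9) and *Trpv4* (7.18 ± 0.25) kept their places. *Tmem63b* (3.18 ± 0.53) then stood above *Piezo1* (1.04 ± 0.22), and all neighbours were apart. This order depends on the length used: with the longest transcript or the mean coding transcript length, *Tmem63b* stood above *Piezo1* in both groups. *Piezo1* in WT lay above 78.4% of the 53365 genes with a length, most of which had no reads. The summed TPM of the 9 genes was 504.4 ± 6.75 in WT and 446.7 ± 7.37 in Piezo1cKO LSCs (SD, n = 3 each), and without *Lrrc8a* it was 124.1 ± 4.01 and 116.9 ± 1.72. *Lrrc8a* shares 66.2% of its exon bases with *Gm28035*, a same-strand model listed at 0, and the level of *Lrrc8a* depends on how such reads were assigned.

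**Figure D2:**
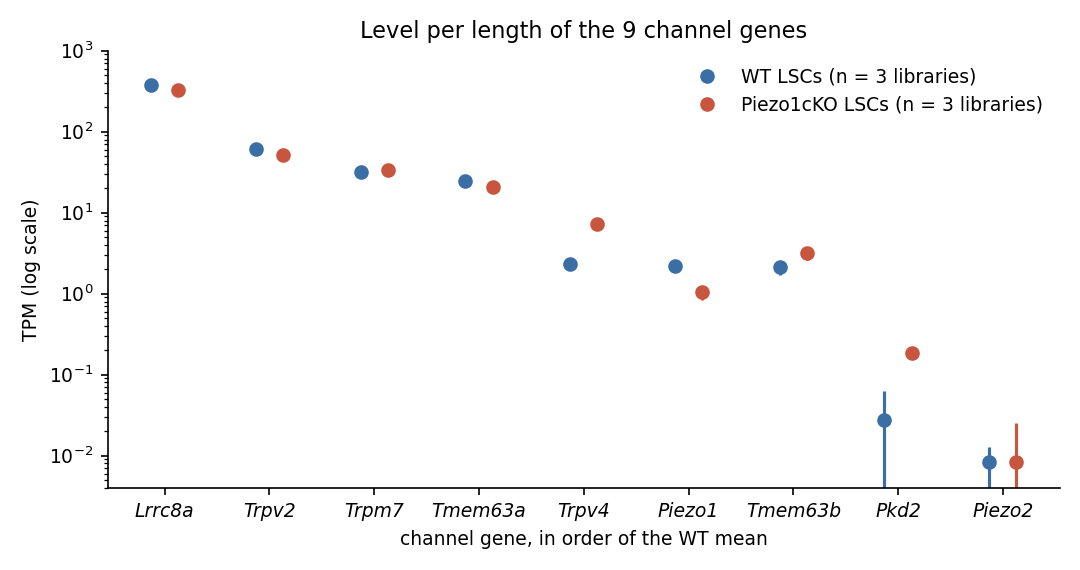
Level per length of the 9 channel genes in TPM (y axis, log scale) in WT and Piezo1cKO LSCs, with points at the mean of 3 libraries and lines from the lowest to the highest library (lines that reach the bottom of the axis include a library at 0). The levels run from 380.3 TPM for *Lrrc8a* to 0.00842 for *Piezo2* in WT, and with these merged exon lengths *Piezo1* stands above *Tmem63b* in WT and below it in Piezo1cKO LSCs.

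LRRC8A works with LRRC8B to LRRC8E, which set what the anion channel lets through, and LRRC8D is known for the passage of larger organic solutes. Of these 4 subunits 3 were tested, 2 fell and 1 was not called (median -0.23 as deposited). Beside this, 63.0% of all tested genes were called, 31.4% of them all as lower. *Lrrc8d* had 479, 544 and 552 reads in WT and 124, 103 and 104 in Piezo1cKO libraries. All Piezo1cKO libraries were far below all WT libraries, at 21.7% of the WT level (-1.10 ± 0.05 as deposited, limma adjusted p = 2.97e-13, and -2.21 on the reads). *Lrrc8b* had 104, 74 and 90 reads in WT and 48, 62 and 25 in Piezo1cKO libraries, 51.9% of the WT level (-0.23 ± 0.05, limma adjusted p = 0.000539). On the reads its change was -1.01, and -0.65 without Piezo1cKO replicate 3. *Lrrc8c*, with 529 to 598 reads in WT and 506 to 557 in Piezo1cKO libraries, was not called (-0.03, limma adjusted p = 0.514). *Lrrc8e* had 3, 1 and 4 reads in WT and 0, 1 and 0 in Piezo1cKO libraries and was not tested.

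The make-up of the family was taken with merged exon lengths only, and its shares depend on the length used. *Lrrc8d* has 12573 merged exon bases, 5736 in its longest transcript and a mean coding transcript length of 1861.8. For *Lrrc8a* these lengths are 4308, 4301 and 4247.5, so other lengths would give *Lrrc8d* a larger share. *Lrrc8a* made up 93.2% ± 0.04 of the family TPM in WT and 94.6% ± 0.30 in Piezo1cKO LSCs. *Lrrc8d* made up 1.94%, 2.38% and 2.29% in the WT libraries and 0.673%, 0.493% and 0.542% in the Piezo1cKO libraries. The share of *Lrrc8c* was 3.85% ± 0.11 and 4.42% ± 0.12. The shares of both groups did not overlap for these 3 subunits, beside 66.6% of all tested genes whose deposited values did not overlap. Shares of a common total are tied, so a fall of 1 subunit raises the shares of the others. By reads, *Lrrc8a* fell and *Lrrc8c* was not called, although the shares of both were higher. The family as a whole stood at 407.9 ± 9.85 TPM in WT and 348.7 ± 8.63 in Piezo1cKO LSCs.

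**Figure D3:**
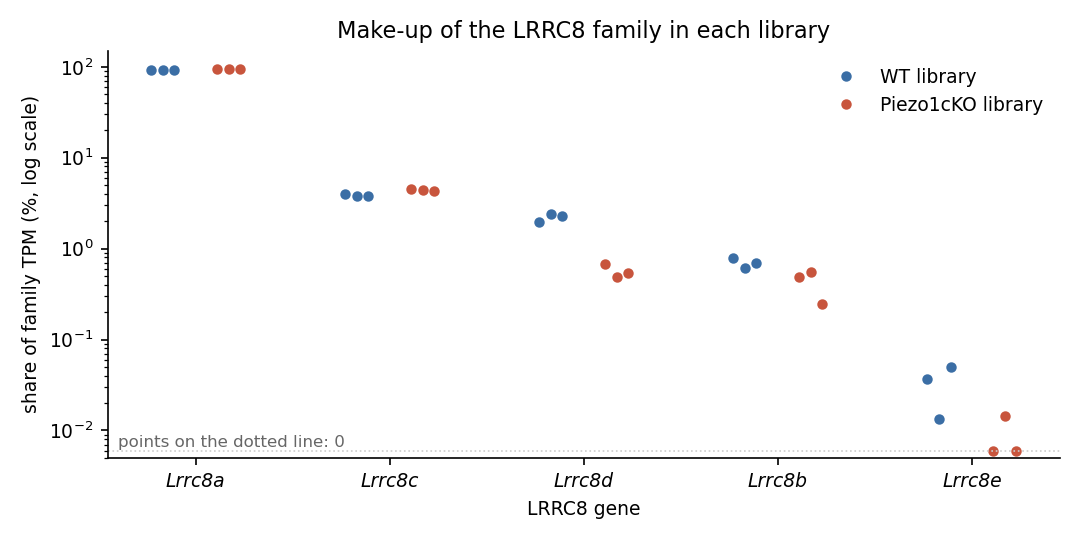
Share of the summed LRRC8 family TPM held by each subunit gene (y axis, percent, log scale), with 1 point per library (3 WT, 3 Piezo1cKO). Merged exon lengths were used, and the shares depend on this choice. *Lrrc8d* lies at 1.94% to 2.38% in WT and 0.493% to 0.673% in Piezo1cKO libraries, while *Lrrc8a* averages 93.2% and 94.6%.

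PIEZO channels are bound or tuned by other proteins, and 10 such partner genes were listed. Of the 8 tested, 5 rose, 1 fell and 2 were not called (median 0.13 as deposited), and *Stoml3* and *Tmem150c* had no reads. The share called was 75%, beside 63.0% of all tested genes (31.6% higher and 31.4% lower). *Mdfic*, which encodes an auxiliary subunit of PIEZO channels, fell the most, from 311, 312 and 326 reads in WT to 38, 37 and 39 in Piezo1cKO libraries. This was 12.4% of the WT level (-1.13 ± 0.04 as deposited, limma adjusted p = 8.23e-15, and -3.00 on the reads). The groups were far apart, and the ratio of *Mdfic* to *Piezo1* TPM was 4.13 ± 0.36 in WT and 1.16 ± 0.30 in Piezo1cKO LSCs. The size of this ratio depends on the merged exon lengths used. Its paralog *Mdfi*, which also binds PIEZO channels, moved the other way, from 5, 2 and 5 reads to 37, 46 and 44. The ratio was 10.9, with an exact 95% interval of 6.04 to 21.7 (limma adjusted p = 8.74e-08). *Mdfi* reached the mean of 10 reads set for naming partners only through the Piezo1cKO libraries, so its call is a description only.

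The other partners changed less. The membrane scaffold gene *Stom* stood at 119.3% of the WT level, the adhesion gene *Pecam1* at 121.0%, the cadherin gene *Cdh1* at 171.3% and the catenin gene *Ctnnb1* at 119.8%, all 4 called higher. For *Cdh1*, at 18 to 37 reads in WT and 44 to 50 in Piezo1cKO libraries, the change on the reads was 0.81, and 0.54 without WT replicate 2. *Mtmr2*, a phosphoinositide phosphatase gene (104.2%, limma adjusted p = 0.198), and *Atp2a2*, the calcium pump gene of the endoplasmic reticulum (94.1%, limma adjusted p = 0.306), were not called.

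**Figure D4:**
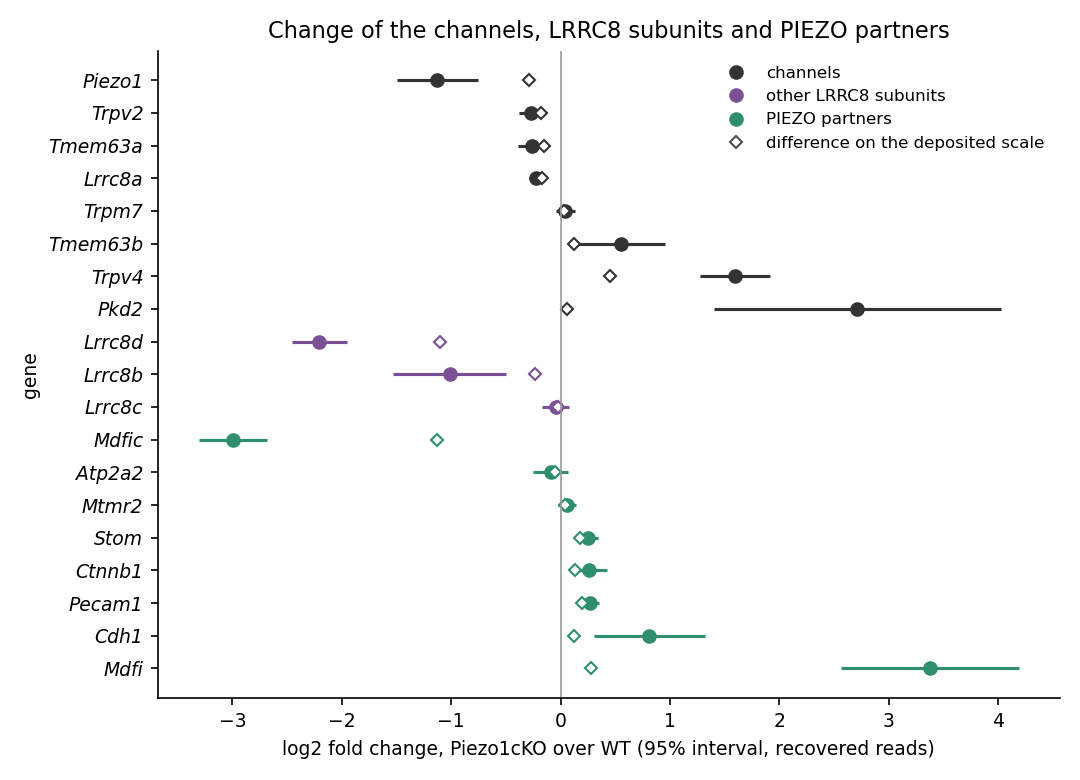
Log2 fold change, Piezo1cKO over WT, of 8 channel genes, 3 other LRRC8 subunits and 8 PIEZO partners (x axis). Filled points with 95% intervals are from recovered reads and open diamonds are the differences on the deposited scale, which lie nearer 0. *Piezo1* lies at -1.13, *Lrrc8d* at -2.21 and *Mdfic* at -3.00, while *Trpv4* lies at 1.59 and *Mdfi* at 3.38. *Mdfi* had few reads in WT, and its change is a description only.

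Other channels with reported links to stretch were mostly low. Of 19 listed, 8 were tested, 3 rose, 1 fell and 4 were not called (median 0.06 as deposited), a share called of 50% beside 63.0% of all tested genes. *Trpm4*, a calcium-activated cation channel, had 38, 54 and 46 reads in WT and 91, 123 and 118 in Piezo1cKO libraries, 247% of the WT level (0.35 ± 0.04 as deposited, limma adjusted p = 1.18e-06). *Trpc6*, a diacylglycerol-gated cation channel, had 5, 9 and 6 reads in WT and none in the Piezo1cKO libraries, at least 6.46-fold lower against a floor of 3 reads over the group (limma adjusted p = 0.00072). It passed the filters only through the WT libraries, so this p-value is a description only. *Ano6* (130.6% of WT) and *Tmem120a* (120.5%), which were named after their values were seen, also rose. *Trpa1*, *Pkd2l1* and *Kcnk2* had no reads.

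Calcium that enters through PIEZO1 is known to open the KCNN4 potassium channel and to activate calpains. Of 10 effector genes, all tested, 6 fell and 4 were not called, with a median of -0.12 on the deposited scale. The share called, 60%, was near the 63.0% of all tested genes called in either direction. All called effectors fell, where 31.4% of all tested genes were called lower, and this was not tested. *Capns1*, the calpain small subunit, went from 2378, 2266 and 2321 reads to 772, 909 and 788, 36.5% of the WT level (-0.99 ± 0.03, limma adjusted p = 6.7e-15). *Kcnn4*, named after its values were seen, went from 2559, 2553 and 2779 reads to 1247, 1308 and 1316, 50.7% of the WT level (-0.68 ± 0.03, limma adjusted p = 5.64e-13). Neither gene had overlapping groups.

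Cell volume also rests on ion cotransporters, water channels and the kinases that switch them. Of 13 such genes, all tested, 4 rose, 6 fell and 3 were not called (median -0.08 as deposited), a share called of 76.9% beside 63.0% of all tested genes. The water and glycerol channel gene *Aqp9* had 291, 269 and 255 reads in WT and 2, 7 and 5 in Piezo1cKO libraries, 1.75% of the WT level (-1.38 ± 0.04, limma adjusted p = 9.43e-16). *Aqp1*, a water channel, stood at 17.4% of the WT level and *Slc12a4*, a potassium-chloride exporter, at 43.0%, and both fell. *Slc12a2*, the sodium-potassium-chloride importer, had 0, 1 and 0 reads in WT and 9, 6 and 10 in Piezo1cKO libraries. Its activating kinase *Stk39* had 1, 1 and 0 reads and 11, 9 and 7. The read ratios were 25.8 (exact 95% interval 4.22 to 1059) and 13.9 (3.50 to 120.9), and both were called higher. With so few WT reads, both genes passed the filters only through the Piezo1cKO libraries, so these calls are a description only.

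Of 15 genes of magnesium transport, the ion that TRPM7 carries, 12 were tested, 5 rose, 3 fell and 4 were not called (median -0.01 as deposited), a share called of 66.7%, near the 63.0% of all tested genes. *Cnnm1* had 1, 2 and 0 reads in WT and 3, 3 and 5 in Piezo1cKO libraries (ratio 3.78, exact 95% interval 0.9996 to 21.1), and its call (limma adjusted p = 0.0488) was lost without WT replicate 1 (0.0782), without WT replicate 3 (0.133), without Piezo1cKO replicate 1 (0.0513) and without Piezo1cKO replicate 3 (0.153). It was also lost with a replicate block (limma adjusted p = 0.0701), with quantile normalization (0.531) and without the filter on low values (0.106). *Slc41a2* had no reads. YAP and TAZ are transcription co-activators that follow cell stretch. Of 18 genes of that pathway 11 were tested, 5 rose, 3 fell and 3 were not called (median -0.02 as deposited), a share called of 72.7% beside 63.0% of all tested genes. *Yap1* had 1 read in all 6 libraries together, and *Wwtr1* (TAZ) and the target genes *Ccn1*, *Ccn2* and *Ankrd1* had none. *Amotl2*, an angiomotin gene, had 64, 45 and 78 reads in WT and 0, 3 and 0 in Piezo1cKO libraries (ratio 0.0166, exact 95% interval 0.00338 to 0.0491). *Tead3*, a DNA-binding partner of YAP, had 0, 1 and 0 reads in WT and 5, 8 and 8 in Piezo1cKO libraries (ratio 21.7, exact 95% interval 3.49 to 896.3). *Amotl2* passed the filters only through the WT libraries and *Tead3* only through the Piezo1cKO libraries, so their calls are a description only.

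The genes whose profile over the 6 libraries lay nearest to *Piezo1* were *Ckap4*, *Tmem165*, *Cluh*, *Psip1* and *Mlst8*. Likeness was the root mean square difference of log2 CPM centred on the gene, over 8292 genes with a mean of at least 10 CPM, and its median over them was 0.537. The 5 genes lay at 0.0828, 0.0879, 0.0975, 0.101 and 0.114. *Ckap4*, an endoplasmic reticulum protein gene, went from 296.8 to 148.2 mean normalised reads and *Tmem165*, a Golgi ion transporter gene, from 213.5 to 100.4. *Piezo1* itself averaged 4.95 CPM.

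Markers of other blood cells also differed between the groups, and their part in the channel results was not tested. Of all tested genes 63.0% were called, 31.6% higher and 31.4% lower. Beside this, the share called of the tested markers was 57.1% for erythroid, 60% for macrophage and 75% for B cells. It was 76.9% for LSCs and progenitors, 83.3% for neutrophils, 85.7% for megakaryocytes and 87.5% for mast cells and basophils. In the lists of T and NK cells and of endothelium and stroma all of the few tested markers were called. Of 8 mast cell and basophil markers 7 rose, with a summed level of 559.6 to 585.2 TPM in WT and 1686 to 1722 in Piezo1cKO libraries, and none was at 0 throughout. Of 6 tested mature neutrophil markers 4 fell and 1 rose, and the sum over the 8 listed was 368.8 to 390.9 TPM in WT and 97.3 to 100.6 in Piezo1cKO libraries, with *Retnlg* at 0. The 13 LSC and progenitor markers summed to 72690 to 78700 TPM in WT and 37300 to 40630 in Piezo1cKO libraries, with 3 called higher and 7 lower, and *Elane* and *Mpo* were the most abundant. Of 7 B cell markers 4 were tested and 3 rose (1489 to 1521 and 2733 to 2801 TPM). Of 8 T and NK cell markers 3 were tested, 2 rose and 1 fell (1.05 to 2.21 and 6.78 to 7.11 TPM), with *Cd8a* at 0. Of 9 endothelial and stromal markers 2 were tested and both rose (3.38 to 4.33 and 17.6 to 19.5 TPM), with *Emcn*, *Tek* and *Col1a2* at 0. Of 9 macrophage markers 5 were tested and 3 rose (48.0 to 51.8 and 54.2 to 59.4 TPM), with *C1qa* and *Cd5l* at 0. Of 10 erythroid markers 7 were tested and 4 fell (21.4 to 26.1 and 7.32 to 8.24 TPM), and of 8 megakaryocyte markers 7 were tested, 2 rose and 4 fell (47.1 to 57.5 and 15.05 to 17.2 TPM), with none at 0 throughout in either list.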

How the data were processed

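RNA sequencing of 6 LSC libraries (3 WT, 3 Piezo1cKO) was analysed, and all had a group in the labels. Per the labels and the study's methods, the authors trimmed reads with fastp 0.20.1, aligned them to GRCm38 with HISAT2 2.2.1, counted them with featureCounts 2.0.1 and used DESeq2 1.28.1. The deposited table holds log2 values of the regularized-log form, with 28965 genes listed at 0. The transformation and the strand setting of the counting are not given in the sources used here, and no library step that keeps strand was described.

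Read counts were recovered by fitting the shrinkage, its weights and the size factors until values became whole. Within 0.1 of a whole number were 92.8% of values of genes averaging 1 read or more, 22.2% with the shrinkage strength 10% higher, and 26.6% for genes with a mean under 1 read. The recovery, the limma fit on the deposited values and the limma-voom fit on the reads were tested on simulated data, and the other fits were not. Totals of 14112124 to 15483613 reads per library set the precision, and exact intervals cover counting error only, since no molecular identifiers were used.

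The groups were compared on the deposited values with limma 3.58.1 (R 4.3.3, lmFit and eBayes with a trend, no covariate) for 16746 genes (mean value 1 or higher), two-sided, with Benjamini-Hochberg adjustment and a threshold of 0.05. Limma-voom on genes with at least 10 recovered reads in total (17352 genes) was an alternative. Other alternatives were no or a stricter filter (mean of 50 reads), median centring, quantile normalization, library totals, a replicate block, each library left out and other gene lengths. Lengths and exon overlaps came from GENCODE M21 and upstream windows from RefSeq, for 8 of the 9 channel genes.

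The 9 channel genes and the gene lists were chosen with earlier results of these data known. Named were the channel genes and other LRRC8 subunits, list members called at 0.05 whose read-based log2 change exceeded 1 in either direction (at most 6 per list), PIEZO partners with a mean of at least 10 reads, and the 5 genes nearest *Piezo1*. Likeness used log2 CPM with 0.5 added. Python 3.11.15 was used for all other steps. Some listed genes are not reported here.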

Additional observations from a re-analysis of the deposited data

How the results depend on the processing

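No direction reversed under any alternative. Of the alternative values 752 kept direction and call or moved little, 22 counts or places moved, 16 lost a call and 1 gained it (*Mtmr2* on the reads without WT replicate 1, limma-voom adjusted p = 0.0482). The calls of 3 higher and 4 lower channel genes held without a filter, with median centring and on the reads. After quantile normalization 2 rather than 3 were called higher (*Tmem63b* was lost), and likewise with a mean of at least 50 reads, a filter that *Pkd2* did not pass. Channel genes past both the adjusted p and the fold threshold numbered 0 as deposited and 3 on the reads, with library totals, with a replicate block and without a filter alike, and 2 to 3 with each library left out (2 without Piezo1cKO replicate 1, where *Piezo1* changed by -0.98). Genes of the whole table past both numbered 137 as deposited, 4322 on the reads, 4333 with library totals, 4364 with a replicate block, 4980 without a filter, and on the reads 3871, 3901 and 3823 without WT replicate 1, 2 and 3 and 3932, 3943 and 3980 without Piezo1cKO replicate 1, 2 and 3. The deposited scale shrinks differences by its construction. *Piezo1* was place 6 by level in WT with merged exon lengths and place 7 with the longest transcript or the mean coding transcript length, and with the latter *Trpm7* and *Tmem63a* also changed places in WT. Same-numbered libraries had correlations of deviations of 0.195, 0.161 and 0.07, so the numbers were not taken as pairs. All 6 libraries correlated best with their own number, a hint only. With the replicate block the change of *Piezo1* was -0.29 as deposited and -1.11 on the reads, and of channel genes 3 were again called higher and 4 lower. Among the genes refitted singly the block removed the call of *Cnnm1* and changed no other. Among these low-read genes, a difference of few reads, as for *Pkd2*, *Piezo2* and *Lrrc8e*, is limited by depth.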
